A study of Mus musculus with 16 samples.

Results

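The nuclear genes that encode the subunits of the mitochondrial respiratory chain and the ATP synthase were examined in the hearts of BACHD mice, a model of Huntington's disease, and of their wild-type (WT) littermates. Members were every probe of the array whose gene symbol in the platform annotation began with Nduf followed by a, b, c, s or v and a number (complex I), was Sdha, Sdhb, Sdhc or Sdhd (complex II), or began with Uqcr (complex III), with Cox4 to Cox8 (complex IV) or with Atp5 (complex V). This rule took 98 of the 25697 probes, for 79 of the 16593 gene symbols on the array. By complex, these were 44 probes of 34 genes in complex I, 6 probes of 3 genes in complex II, 9 of 8 in complex III, 21 of 18 in complex IV and 18 of 16 in complex V. The rule used names only and no measured value.

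RNA was measured in 16 mice, 4 in each of 4 groups: aged BACHD, aged WT, young BACHD and young WT. The labels give the tissue as heart and the age as old or young, and the methods give ventricles at 15 months and at 3 months of age. BACHD mice carry full-length mutant human huntingtin on a bacterial artificial chromosome, under the regulatory sequence of the human gene, on the C57BL6/J background. They are 1 transgenic line, so an effect of the transgene and one of its site of insertion cannot be told apart, and WT littermates lack it. No group was treated with a drug, and each array was 1 mouse.

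Complexes I to IV pass electrons from NADH and succinate to oxygen and, except for complex II, pump protons out of the mitochondrial matrix. Complex V, the ATP synthase, lets the protons back and makes ATP. The heart draws nearly all of its ATP from this pathway, and its cardiomyocytes are packed with mitochondria. Most subunits are encoded in the nucleus and imported, while a core of each complex except complex II is encoded by mitochondrial DNA. No probe of the array carried the symbol of a mitochondrially encoded subunit.

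Each array gave 1 bead signal intensity and 1 detection p-value for every probe. The median raw intensity of an array was between 133 and 157, and between 9780 and 10755 probes were detected (detection p-value below 0.01). The level of a probe is given below as its log2 intensity after background correction and quantile normalization. Levels of different probes cannot be set against each other, because each probe binds with its own strength. Differences are on the log2 scale and run BACHD minus WT, or aged minus young, and their p-values come from limma fitted to all probes and all 16 arrays. A probe was called at an unadjusted P below 0.005, and Benjamini-Hochberg adjusted p-values are over all 25697 probes. All 8 measured markers of ventricular cardiomyocytes were detected on every array, with a summed linear level of 160500 to 167800 in aged BACHD, 163500 to 167200 in aged WT, 159900 to 167000 in young BACHD hearts and 158000 to 165500 in young WT hearts, and 0 of the 8 was called in any comparison. Of the 7 atrial markers, Bmp10 was detected on no array, and their mean log2 level stood apart on 4 aged arrays. It was 7.59 and 7.64 on aged BACHD arrays 3 and 4, and 7.59 and 8.57 on aged WT arrays 2 and 4, against 6.397 to 6.83 on the other 12. The summed linear level of the atrial markers was 8173 to 24180 in aged BACHD, 4885 to 11050 in aged WT, 10480 to 12750 in young BACHD hearts and 6488 to 12860 in young WT hearts, and 1 of the 7 was called in each pairwise comparison except that of young BACHD with young WT. The part of these 4 arrays in the results was not tested, and calls with age are also given without them. The samples are bulk tissue, so fewer cells of a type and less RNA per cell cannot be told apart.

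Of the 98 probes, 85 were detected on all 16 arrays, 4 on some and 9 on none. After quantile normalization, the mean level of each complex hardly differed between the groups. This step gives every array the same set of values. Among probes detected on all arrays with a mean level of 14 or more, 38 were members and 65 were not. A shift shared by many members could thus be partly removed, and medians with age under another scaling are given below. Over its 41 detected probes, complex I averaged 12.88 ± 0.043 in aged BACHD, 12.87 ± 0.055 in aged WT, 12.91 ± 0.052 in young BACHD hearts and 12.93 ± 0.019 in young WT hearts (log2 level, SD, n = 4). Complex III, over 7 probes, averaged 14.20 ± 0.019 in aged BACHD, 14.20 ± 0.024 in aged WT, 14.23 ± 0.037 in young BACHD hearts and 14.26 ± 0.013 in young WT hearts. Complex IV, over 17 probes, averaged 12.94 ± 0.017, 12.96 ± 0.026, 12.99 ± 0.036 and 12.99 ± 0.023 in the same 4 groups, and complex V, over 16 probes, 13.09 ± 0.038, 13.09 ± 0.039, 13.08 ± 0.049 and 13.11 ± 0.044. Complex II, with only 4 probes, was the most variable, between 12.13 on aged BACHD array 1 and 12.44 on young BACHD array 4. On some arrays the complexes were high or low together: young BACHD array 4 was the highest of its group in all 5 complexes, and aged WT array 3 the lowest of its group in all 5. Aged BACHD array 4 and young WT array 4 were each the highest of their group in 3 complexes but the lowest in complex IV. Over all 85 probes, array 4 was the highest of its group in each of the 4 groups, at 13.051 in aged BACHD, 13.070 in aged WT, 13.090 in young BACHD hearts and 13.074 in young WT hearts, and young WT array 3 was the lowest of its group in 4 complexes.

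**Figure D1:**
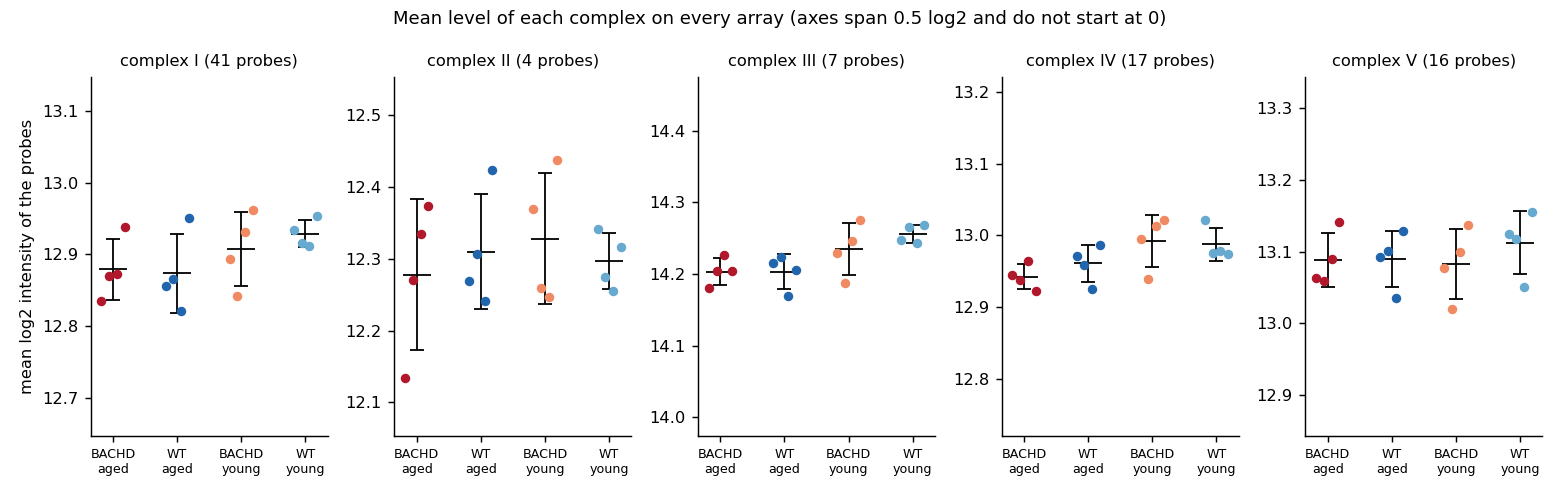
The mean log2 intensity of the probes of each complex detected on all arrays is plotted for each array (points) in the 4 groups, with the group mean and SD (n = 4); each axis spans 0.5 log2 and does not start at 0. In the 4 comparisons made, the groups overlap in every complex except for aged and young WT in complex III, where all 4 aged arrays (14.17 to 14.22) lie below all 4 young arrays (14.24 to 14.27).

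In young hearts, 0 of the 98 members was called between BACHD and WT, where 0.483% of all probes were called. The limma fit gave 1 member at an unadjusted p under 0.05, against 1253 of all probes, and that 1 probe, for Sdhc, was detected on no array. The median log2 difference of the 85 members detected on all arrays was -0.021, and 69 of the 85 differed by less than 0.1 in either direction. In aged hearts, 1 member was called, against 0.895% of all probes, and it was a probe for the testis isoform Cox7b2 that no array detected. The median difference of the 85 members was -0.0093 and 66 of them differed by less than 0.1. Of the probes detected on all 16 arrays, 0 of 85 members was called in young hearts, against 0.521% of all 8827 such probes, and 0 of 85 in aged hearts, against 1.47%.

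With age, more probes of the whole array moved, but few members did. In WT hearts 1 of 98 members was called, the undetected Cox7b2 probe again, against 2.77% of all probes, and 0 of the 85 detected members against 5.49% of all detected probes. In BACHD hearts 3 of 98 members were called, against 5.15% of all probes. Of these, 1 was a probe for the testis isoform Cox6b2 that no array detected. The other two, both lower in aged BACHD hearts, were Uqcrc1 of complex III and Ndufv3 of complex I. They are 2 of the 85 detected members, against 11.7% of all detected probes. At an adjusted p below 0.05, 0 members passed in any comparison. Of all probes, 0.712% passed that threshold for age in WT hearts and 3% for age in BACHD hearts, and 0% in the other comparisons. The test of whether the genotype difference changed with age (the interaction) called 1 member, Cox7b2, against 0.611% of all probes.

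The members' normalized differences were small, and most of their confidence intervals were narrow. Over the 85 detected members, the median absolute log2 difference was 0.043 and 0.047 between the genotypes in young and in aged hearts, and 0.057 with age in both WT and BACHD hearts. Over all detected probes it was 0.081 and 0.087 between the genotypes, and 0.12 with age in WT hearts and 0.14 with age in BACHD hearts. The 95% confidence interval of a detected member reached a median of 0.14 to either side of its difference. It lay wholly between -0.5 and 0.5 for 78 of the 85 members in the comparison of genotypes at either age, for 81 with age in WT hearts and for 79 with age in BACHD hearts. Thus for most subunits the intervals bound a normalized difference to less than 0.5 on the log2 scale, and a smaller one may have been missed. The highest raw intensity of a member was 41282, against 43492 for any probe. Whether differences shrink among such bright probes was not tested.

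Because the spread between arrays depends on a probe's signal, the differences are also given by signal level. Among probes with a mean level of 14 or more, 2 of 38 members (5.26%) and 3 of 65 other probes (4.62%) were called for age in BACHD hearts. Between 11 and 14, 0 of 33 members and 12.8% of 1082 other probes were called in that comparison, and below 11, 0 of 14 members and 11.7% of 7595 others. The median residual SD of the members was 0.057 at a level of 14 or more, 0.095 between 11 and 14 and 0.22 below 11. For the other detected probes, it was 0.064, 0.10 and 0.17. At 14 or more, the median absolute log2 difference of members and other probes was 0.032 and 0.041 for genotype in young hearts. For genotype in aged hearts, it was 0.037 and 0.034. With age, it was 0.048 and 0.045 in WT hearts and 0.039 and 0.065 in BACHD hearts. Between 11 and 14, the members had the smaller median in every pairwise comparison. Below 11, they had the larger median for genotype at both ages and the smaller median with age. The part of brightness in the size of the differences was not tested.

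**Figure D2:**
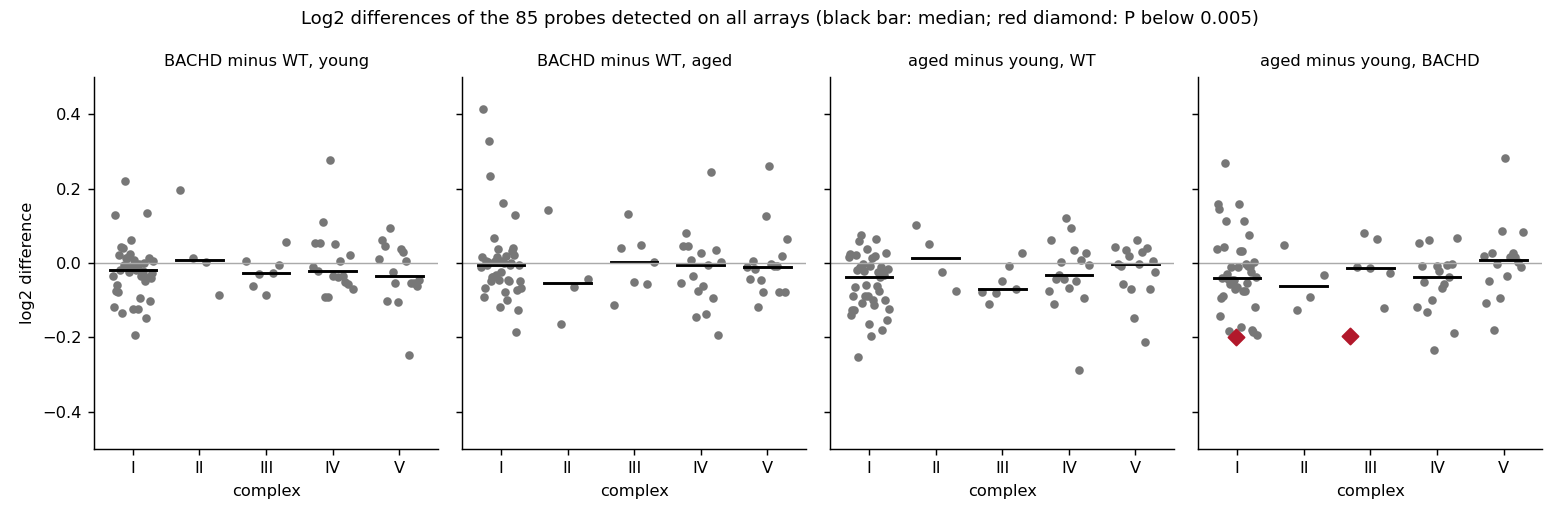
The log2 difference of each of the 85 probes detected on all arrays is plotted by complex for the 4 comparisons, with the median as a black bar and probes called at P below 0.005 as red diamonds. Most points lie within 0.1 of 0, and the only called probes are Ndufv3 and Uqcrc1, both lower in aged than in young BACHD hearts.

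Of the 85 detected members, 58 were lower in aged than in young WT hearts and 58 in aged than in young BACHD hearts, with medians of -0.026 and -0.027. Over all detected probes, 4398 of 8827 were lower with age in WT and 4407 in BACHD hearts, with medians near 0. When arrays were scaled by their median rather than quantile-normalized, the medians of the 85 members were -0.067 in WT and -0.079 in BACHD hearts, and those of all detected probes were -0.025 and 0.014. A further description is whether the groups overlapped. All 4 BACHD arrays lay above or below all 4 WT arrays for 4 of the 98 members in young hearts (2.88% of all probes) and for 4 in aged hearts (3.21%). The aged and young arrays did not overlap for 8 members in WT hearts (6.81% of all probes) and for 4 in BACHD hearts (8.9%).

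Complex I takes electrons from NADH at a flavin in its matrix arm and hands them down a chain of iron-sulfur clusters. Its flavin-binding subunit Ndufv1 was 14.34 ± 0.028 in aged BACHD, 14.34 ± 0.088 in aged WT, 14.31 ± 0.026 in young BACHD hearts and 14.33 ± 0.036 in young WT hearts. Its iron-sulfur partner Ndufv2 differed between BACHD and WT by -0.027 in young and -0.049 in aged hearts, and the iron-sulfur subunits Ndufs3 and Ndufs7 differed by at most 0.076 in either direction in any of the 4 comparisons. The 95% intervals of these 4 core subunits stayed between -0.21 and 0.15, so that a larger difference in these 4 would lie outside the intervals. This range does not cover the core subunits Ndufs8 and Ndufs1, which are given below.

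Ndufv3, an accessory subunit that sits beside the flavin-binding pair, was called lower in aged than in young BACHD hearts. Its probe ILMN_2668977 read 14.21, 14.10, 14.18 and 14.10 on the aged BACHD arrays, against 14.41, 14.34, 14.35 and 14.29 on the young BACHD arrays. All 4 aged arrays lay below all 4 young arrays, with a difference of -0.20 (SE 0.053, 95% interval -0.31 to -0.09, limma P = 0.00186, adjusted p = 0.0548; exact permutation p = 0.0286, the smallest that 4 against 4 arrays can give). In WT hearts, this probe read 14.29, 14.24, 14.25 and 14.30 on aged arrays and 14.34, 14.44, 14.33 and 14.32 on young arrays. The groups again did not overlap, but the difference of -0.09 was not called (limma, adjusted p = 0.584). Aged BACHD also lay below aged WT on every array, by -0.12 (limma, adjusted p = 0.787), which was not called, and young BACHD and young WT differed by -0.011. The interaction of genotype and age was -0.11 (limma, adjusted p = 0.87).

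A second bright Ndufv3 probe, ILMN_3008277, gave nearly the same size. It read 13.996, 13.89, 14.08 and 13.93 on aged BACHD arrays and 14.18, 14.06, 14.23 and 14.20 on young BACHD arrays. The groups overlapped by 1 array each, and the difference of -0.19 was not called (limma, adjusted p = 0.149). In WT hearts its difference was -0.12 (limma, adjusted p = 0.547). Another probe, ILMN_2688822, was dim, with levels between 5.73 and 6.61 and detection on 15 of the 16 arrays, and leaned the other way in BACHD hearts, by 0.23 (limma, adjusted p = 0.498). No source used here gives the transcripts of Ndufv3 that each probe reads.

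Ndufs8, an iron-sulfur subunit on the path to the quinone site, had a lower mean with age but was not called. It read 13.50, 13.33, 13.38 and 13.25 on aged BACHD arrays and 13.59, 13.46, 13.54 and 13.56 on young BACHD arrays. The difference was -0.17 (SE 0.057, limma, adjusted p = 0.135), and in WT hearts, where the aged and young arrays did not overlap, it was -0.10 (limma, adjusted p = 0.574). Ndufa12, an accessory subunit of the matrix arm, had a difference in the other direction. It read 13.74, 13.71, 13.62 and 13.63 on aged BACHD arrays and 13.48, 13.50, 13.55 and 13.54 on young BACHD arrays, with all 4 aged arrays above all 4 young arrays, and the difference of 0.16 was not called (limma, adjusted p = 0.177). Young BACHD also lay below young WT on every array for Ndufa12, by -0.12 (limma, adjusted p = 0.969), and aged BACHD and aged WT differed by 0.015. Among the other complex I probes, Ndufa8 had 1 probe with a difference of -0.17 with age in WT hearts (limma, adjusted p = 0.372), while its second probe gave -0.039. The probe for Ndufs1, the largest iron-sulfur subunit, was detected on no array and is not interpreted.

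Complex II, succinate dehydrogenase, links the citric acid cycle to the chain. Its membrane anchor Sdhc read 13.66, 13.44, 13.71 and 13.52 on aged BACHD arrays, against 13.78, 13.72, 13.75 and 13.73 on aged WT arrays. All 4 BACHD arrays lay below all 4 WT arrays, by -0.16 (SE 0.063, 95% interval -0.30 to -0.03, limma P = 0.0186, adjusted p = 0.73; exact permutation p = 0.0286), a difference that was not called. In young hearts, Sdhc differed by 0.013 between BACHD and WT. The iron-sulfur subunit Sdhb, on its 2 bright probes, differed by -0.064 and -0.044 in aged hearts and by 0.0021 and -0.087 in young hearts, and its other probe was detected on 9 arrays only. Sdhd, the other membrane anchor, was dim and scattered, with SDs of 0.41 in aged BACHD hearts, against 0.26 in aged WT hearts, and its intervals reached 0.53 in aged hearts. Sdha, the flavoprotein, had no probe.

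Complex III passes electrons from ubiquinol to cytochrome c. Uqcrc1, a core protein of its matrix side, was the other detected member called with age in BACHD hearts. Its probe ILMN_1256673 read 14.13, 14.13, 14.09 and 13.95 on aged BACHD arrays, against 14.31, 14.28, 14.28 and 14.23 on young BACHD arrays. The groups did not overlap, and the difference was -0.20 (SE 0.055, 95% interval -0.31 to -0.08, limma P = 0.00282, adjusted p = 0.0688; exact permutation p = 0.0286). In WT hearts, it read 14.23, 14.18, 14.21 and 14.13 on aged arrays and 14.30, 14.26, 14.21 and 14.30 on young arrays, groups that overlapped, with a difference of -0.077 (limma, adjusted p = 0.683). Aged BACHD and aged WT differed by -0.11 (limma, adjusted p = 0.841), and young BACHD and young WT by 0.0055. The interaction of genotype and age was -0.12 (limma, adjusted p = 0.86).

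Uqcrc2, the partner core protein, was not called in any comparison. It differed by -0.011 with age in BACHD hearts and by -0.11 in WT hearts, where all 4 aged arrays (14.29 to 14.40) lay below all 4 young arrays (14.42 to 14.49; limma, adjusted p = 0.414). The probes for Uqcrfs1, the Rieske iron-sulfur protein, and for Uqcrq were detected on no array. Beside the rule, Cyc1, which encodes cytochrome c1 of the same complex, was lower in aged BACHD hearts by -0.20 (limma, adjusted p = 0.0817), at 13.58, 13.46, 13.49 and 13.37 on aged arrays and 13.70, 13.67, 13.65 and 13.68 on young arrays. In WT hearts, Cyc1 differed by -0.14 (limma, adjusted p = 0.362). Its call in BACHD hearts was lost without the 4 aged arrays that stood apart in atrial markers and under median scaling.

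The calls of Uqcrc1 and Ndufv3 were lost in several other fits. Without the 4 aged arrays that stood apart in atrial markers, Uqcrc1 had a difference of -0.14 and Ndufv3 one of -0.19, and neither was called. Under median scaling, they were -0.25 and -0.23, and again neither was called, while the second Ndufv3 probe was, at -0.24. The call of Uqcrc1 was also lost without young BACHD array 1, 2 or 3 or without aged BACHD array 3 or 4, with differences of -0.15 to -0.20. That of Ndufv3 was lost without young BACHD array 1 or aged BACHD array 2 or 4, with a difference of -0.18 in each. In the same comparison, 3 of the 6 fibroblast markers and 1 of the 4 measured macrophage and leukocyte markers were called, with medians over the lists of -0.45 and -0.42. Of all probes, 5.15% were called there, and 11.7% of those detected on every array. The summed linear level of the macrophage and leukocyte markers was 1834 to 3074 in aged BACHD and 2413 to 3584 in young BACHD hearts, and that of the fibroblast markers 10940 to 12520 in aged BACHD and 11000 to 11950 in young BACHD hearts. Their mean log2 level was 7.20 to 7.63 for the fibroblast list in aged BACHD and 7.80 to 7.91 in young BACHD hearts, and Postn and Ptprc were detected on no array. The part of these markers in the results was not tested.

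**Figure D3:**
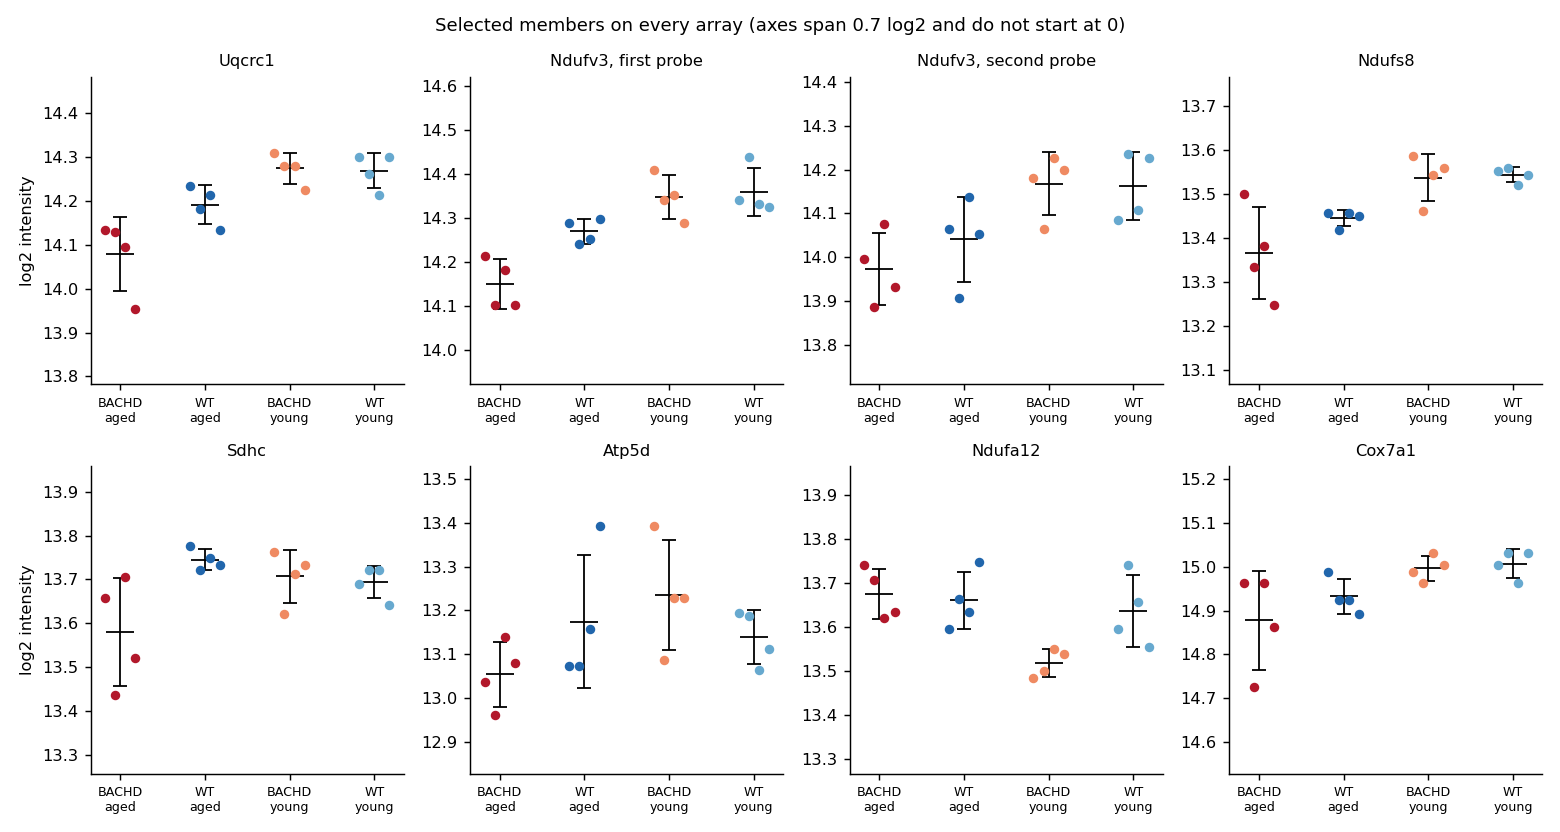
The log2 intensity on each array (points), with the group mean and SD (n = 4), is plotted for 7 members, Ndufv3 with its 2 bright probes; each axis spans 0.7 log2 and does not start at 0. Uqcrc1 and both Ndufv3 probes are lowest in the aged BACHD group, where Uqcrc1 averages 14.08 against 14.27 in young BACHD hearts, and Ndufa12 is lowest in the young BACHD group, at 13.52.

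Complex IV, cytochrome c oxidase, reduces oxygen, and several of its nuclear subunits exist as a heart and muscle form beside a form found in most tissues. None of the muscle forms was called in any comparison. Cox6a2 was 15.07 ± 0.039 in aged BACHD, 15.14 ± 0.031 in aged WT, 15.09 ± 0.060 in young BACHD hearts and 15.04 ± 0.084 in young WT hearts. Cox7a1 was 14.88 ± 0.11, 14.93 ± 0.040, 14.996 ± 0.029 and 15.01 ± 0.033 in the same 4 groups. Cox8b was 14.76 ± 0.047, 14.72 ± 0.056, 14.76 ± 0.036 and 14.82 ± 0.052. The differences of these 3 genes between BACHD and WT lay between -0.063 and 0.052 at both ages. With age in BACHD hearts, Cox7a1 differed by -0.12 (95% interval -0.24 to 0.01, limma, adjusted p = 0.363), the largest age difference of the 3 in either genotype.

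None of the forms of most tissues was called either. The 2 probes of Cox6a1 differed by -0.15 and -0.14 between aged BACHD and aged WT hearts (limma, adjusted p = 0.889 and 0.882) and by -0.09 and -0.038 between young BACHD and young WT hearts. Cox7a2 read 8.81, 9.10, 8.75 and 8.97 on aged BACHD arrays, against 8.98, 9.08, 9.04 and 9.31 on aged WT arrays. These groups overlapped, and the difference of -0.19 (95% interval -0.40 to 0.02, limma, adjusted p = 0.851) was not called. Cox8a differed by 0.11 in young hearts (limma, adjusted p = 0.969) and by 0.0088 in aged hearts. Cox4i1 differed by -0.091 and -0.034 between BACHD and WT in young and in aged hearts, and its hypoxia-related partner Cox4i2, a dim probe, by 0.28 (95% interval -0.07 to 0.62) and -0.077. Cox5a and Cox5b, which lie close to the mitochondrially encoded core, differed by at most 0.095 in any comparison, and the 2 probes of Cox6b1 by at most 0.11.

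Other members of this family have roles outside complex IV or outside the heart. Ndufa4, named for complex I but known as a subunit of complex IV, lay higher on all 4 young BACHD arrays (14.76 to 14.82) than on the young WT arrays (14.70 to 14.73), by 0.063 (limma, adjusted p = 0.973), and differed by -0.045 in aged hearts. Cox7a2l, which has a described role in joining complexes III and IV into supercomplexes, differed by -0.07 and 0.0013 between BACHD and WT in young and in aged hearts. Whether it has that role in mice of this strain was not examined. The testis isoforms were dim. No array detected Cox7b2, Cox8c or the called probe of Cox6b2, ILMN_1229627, so the calls of Cox7b2 and of that probe come from signals below the detection limit. The other Cox6b2 probe, ILMN_2764551, was detected on 8 of the 16 arrays, 3 of them aged BACHD and 1 young BACHD. It read 6.01, 6.28, 5.23 and 6.16 on aged BACHD arrays and 5.30, 4.94, 5.69 and 5.29 on young BACHD arrays, groups that overlapped. Its difference of 0.62 (95% interval 0.09 to 1.14, limma, adjusted p = 0.225) had the same sign as that of the called probe and was not called.

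**Figure D4:**
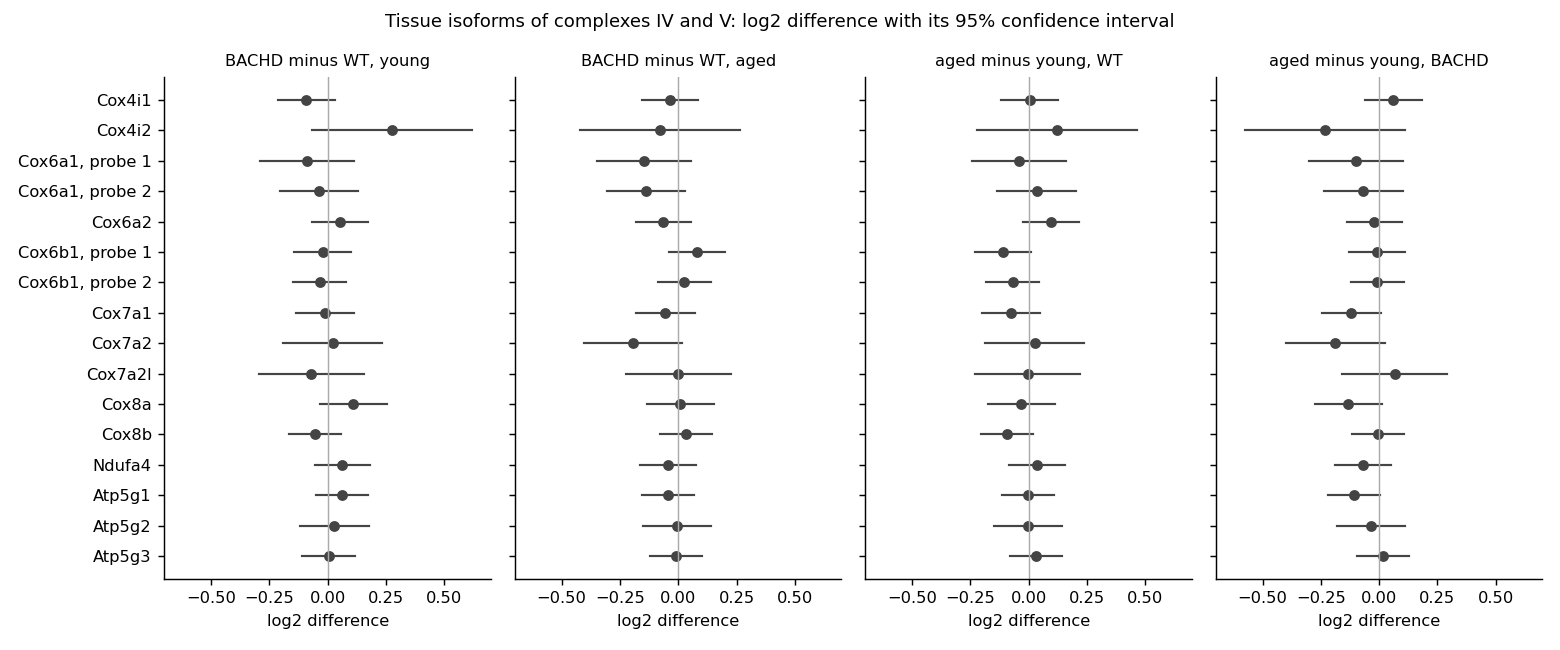
The log2 difference (point) and its 95% confidence interval (line) are plotted for the tissue isoforms of complexes IV and V and for Ndufa4 in the 4 comparisons, for probes detected on all arrays. Every interval includes 0, and the widest belong to the dim probe of Cox4i2, which reaches 0.62 in young hearts.

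Complex V makes ATP in its F1 head, which is driven by a ring of c subunits in the membrane. The catalytic subunit Atp5b was 15.19 ± 0.037 in aged BACHD, 15.24 ± 0.050 in aged WT, 15.19 ± 0.055 in young BACHD hearts and 15.22 ± 0.034 in young WT hearts. The alpha subunit Atp5a1, on a dimmer probe, read 11.09, 11.33, 11.01 and 11.52 on aged BACHD arrays and 10.79, 11.35, 10.52 and 11.25 on aged WT arrays. The scatter within the WT group exceeded the difference of 0.26 (95% interval -0.13 to 0.65, limma, adjusted p = 0.89). Atp5c1, the central stalk, differed by -0.10 in young and -0.017 in aged hearts. Of the 3 genes of the c subunit, which encode the same mature protein, Atp5g2 and Atp5g3 differed by at most 0.035 in any comparison. Atp5g1 lay higher on all 4 young BACHD arrays (14.84 to 14.92) than on the young WT arrays (14.78 to 14.82), by 0.063 (limma, adjusted p = 0.969), and differed by -0.11 with age in BACHD hearts (limma, adjusted p = 0.355).

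The smallest P values among the detected probes of this complex belonged to Atp5d and Atp5pb. Atp5d, the delta subunit at the foot of the stalk, read 13.04, 12.96, 13.14 and 13.08 on aged BACHD arrays and 13.39, 13.09, 13.23 and 13.23 on young BACHD arrays, groups that overlapped, and the difference of -0.18 was not called (limma, adjusted p = 0.304). Atp5pb, the b subunit that holds the head in place, was 13.53 ± 0.26 in young BACHD hearts and 13.78 ± 0.11 in young WT hearts, a difference of -0.25 (95% interval -0.50 to 0.00, limma, adjusted p = 0.969). Its young BACHD arrays 1 and 2 were low (13.29 and 13.31) and arrays 3 and 4 high (13.80 and 13.71), and the groups overlapped. The same arrays were the low ones for the Atp5j probe ILMN_2611261 and the Cox6a1 probe ILMN_2605400, though not for every member. The cause of this split was not tested. Beside the rule, Atpif1, which encodes the inhibitor of the ATP synthase, was called higher in aged BACHD than in aged WT hearts, by 0.34 (limma, adjusted p = 0.508). It read 13.89, 14.12, 13.67 and 13.93 on aged BACHD arrays and 13.56, 13.42, 13.64 and 13.63 on aged WT arrays, with no overlap. Under median scaling Atpif1 was not called.

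At an unadjusted p under 0.05, the limma fit listed 0, 3, 5 and 9 of the 85 detected probes for genotype in young hearts, genotype in aged hearts, age in WT hearts and age in BACHD hearts. Of all 8827 detected probes it listed 494, 783, 1757 and 2558 in the same 4 comparisons. The 3 for genotype in aged hearts were Ndufv3, Sdhc and Cox7b, a subunit of complex IV, which differed by 0.24 (limma, adjusted p = 0.775) and, with age in WT hearts, by -0.29 (limma, adjusted p = 0.284). The rest for age in WT hearts were Ndufa8, Ndufc1, Ndufs4 and Uqcrc2. Those for age in BACHD hearts were both bright Ndufv3 probes, Ndufs8, Ndufa12, Ndufc1, Ndufs5-ps, Uqcrc1, Uqcr11 and Atp5d. Cox7b, Ndufc1, Uqcr11 and Ndufs5-ps are named here after their values were seen.

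Several genes had more than 1 probe, and these did not always agree. Of 14 genes with several probes, the sign of the difference was the same on all probes for 8 in young and 6 in aged hearts between BACHD and WT. With age, it was the same for 8 in WT and 10 in BACHD hearts. These counts include probes that not every array detected, for Atp5j, Cox6b2, Ndufb11, Ndufv3, Sdhb and Sdhc. The sign of such a probe says little. Ndufs4, an accessory subunit of complex I, was the gene with most probes, 4, all detected on every array, and 1 of them lay lower on every young BACHD than young WT array, by -0.15 (limma, adjusted p = 0.969). The member Ndufs5-ps is annotated by RefSeq as a transcribed pseudogene, and its signal and that of Ndufs5 cannot be told apart here.

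The 200 bases upstream of the transcription start are shown for the 2 called genes, Uqcrc1 and Ndufv3, and for 3 isoforms of complex IV, 2 of most tissues (Cox6a1 and Cox7a2) and 1 of muscle (Cox7a1). They come from RefSeq on the build GRCm38.p6, 5′ to 3′ on the strand of the gene. Capitals mark matches on either strand to GCGCATGCG (NRF-1), CCGGAAGT (GABP), AAGATGGC (YY1), TCAAGGTCA (estrogen-related receptors) or GGGCGG (the GC box).

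Uqcrc1 (chr9:108936448-108936647, plus strand): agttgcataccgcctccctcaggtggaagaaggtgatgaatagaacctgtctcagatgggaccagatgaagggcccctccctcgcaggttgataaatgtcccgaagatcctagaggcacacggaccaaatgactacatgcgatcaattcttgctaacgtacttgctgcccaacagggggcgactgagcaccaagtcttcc
Ndufv3 (chr17:31519915-31520114, plus strand): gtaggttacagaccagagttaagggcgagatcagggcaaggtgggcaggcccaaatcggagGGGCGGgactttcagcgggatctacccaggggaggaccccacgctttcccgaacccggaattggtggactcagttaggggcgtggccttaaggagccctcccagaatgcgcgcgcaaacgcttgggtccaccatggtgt
Cox6a1 (chr5:115348959-115349158, minus strand): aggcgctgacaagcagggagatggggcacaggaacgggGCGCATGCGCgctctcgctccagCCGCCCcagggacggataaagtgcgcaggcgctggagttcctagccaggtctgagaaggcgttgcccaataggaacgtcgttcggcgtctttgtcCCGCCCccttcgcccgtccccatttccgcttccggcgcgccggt
Cox7a2 (chr9:79759854-79760053, minus strand): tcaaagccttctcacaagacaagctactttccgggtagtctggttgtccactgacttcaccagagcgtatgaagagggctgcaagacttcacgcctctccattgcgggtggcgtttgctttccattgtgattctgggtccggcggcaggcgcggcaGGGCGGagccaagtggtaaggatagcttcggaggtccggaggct
Cox7a1 (chr7:30183971-30184170, plus strand): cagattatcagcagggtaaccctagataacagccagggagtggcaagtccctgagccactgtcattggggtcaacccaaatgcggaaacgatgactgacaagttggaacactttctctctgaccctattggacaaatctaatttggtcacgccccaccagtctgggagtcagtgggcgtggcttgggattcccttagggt

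The promoter windows of Cox6a1 and Cox7a1 differ most. Cox6a1 held 23 CpG pairs at 67% GC, with a match to the NRF-1 letters on both strands at once and 2 GC boxes. Cox7a1 held 4 CpG pairs at 52% GC and no match. The windows of Cox7a2 and Ndufv3 each held 12 CpG pairs and 1 GC box, and that of Uqcrc1 held 7 CpG pairs and no match. Of the 79 genes, 64 were matched to 69 windows, here over 250 bases before the start. The NRF-1 letters stood in 5 of the 69 (7.25%), against 1.45% of all 32851 windows of that length, the GABP letters in 3 (4.35%, against 2.88%), and those of YY1 and of the estrogen-related receptors in 1 each (1.45%, against 1.56% and 0.387%). The GC box stood in 24 (34.8%, against 32.7%) and the TATA box letters TATAAA, which were not marked, in 7 (10.1%, against 12.4%). NRF-1, GABP, YY1 and the estrogen-related receptors are known regulators of respiratory chain genes, and a match of letters is a description, not a bound site.

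Genes that build, supply and regulate the chain were described in lists. These lists were chosen with results of these arrays known, and each gene is represented by its brightest probe. Of 47 assembly factors, which insert cofactors and put subunits together, 40 were measured. For age in BACHD hearts, 7 were lower and 0 higher (Ndufaf5, Foxred1, Bcs1l, Cox15, Taco1, Atpaf2 and Tmem70), with a median over the list of -0.14, where 5.15% of all probes and 11.7% of the probes detected on every array were called in either direction. For age in WT hearts, 5 were lower and 0 higher (Foxred1, Sdhaf3, Cox11, Cox15 and Tmem70), with a median of -0.065, against 2.77% of all probes and 5.49% of the detected probes. The medians of all probes were -0.0016 and -0.00033. Between BACHD and WT, 0 of the 40 was called in young hearts and 1 in aged hearts. That gene was Cox11, which delivers copper to complex IV, and it was higher by 0.47 in aged BACHD hearts (limma, adjusted p = 0.524). Cox11 is dim, at 5.84 to 6.94, and under median scaling it was not called between the genotypes.

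Tmem70, which is needed to assemble the ATP synthase, had the smallest p-value of the list. It read 9.76, 9.71, 10.03 and 9.75 on aged BACHD arrays and 10.29, 10.23, 10.30 and 10.36 on young BACHD arrays, a difference of -0.48 (SE 0.080, limma, adjusted p = 0.00513). In WT hearts it read 9.99, 9.80, 9.995 and 9.93 on aged arrays and 10.24, 10.28, 10.21 and 10.46 on young arrays, a difference of -0.37 (limma, adjusted p = 0.0501). In both genotypes all 4 aged arrays lay below all 4 young arrays. Foxred1, an assembly factor of complex I, was lower by -0.31 in aged BACHD hearts (adjusted p = 0.0338) and by -0.32 in aged WT hearts (adjusted p = 0.0604). Cox15, which makes the heme of complex IV, was lower by -0.31 in BACHD (adjusted p = 0.0299) and by -0.29 in WT hearts (adjusted p = 0.0842). Bcs1l, which inserts the Rieske protein into complex III, was lower by -0.41 in aged BACHD hearts (limma, adjusted p = 0.0456), and its WT difference of -0.22 was not called. Without the 4 aged arrays that stood apart in atrial markers, 3 assembly factors were called lower in BACHD (Bcs1l, Atpaf2 and Tmem70) and 3 in WT hearts (Cox11, Cox15 and Tmem70). Under median scaling, Cox15 was not called in either genotype.

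The list of electron carriers and coenzyme Q synthesis held calls with age in BACHD hearts. It includes cytochrome c and genes of coenzyme Q synthesis, which supply the mobile carriers between the complexes, and also Etfa, Etfb and Etfdh. Of 15 measured genes of this list, 4 were lower and 1 higher with age in BACHD hearts, with a median of -0.12, and 1 was lower in WT hearts, with a median of -0.037. The shares of all probes called are those given for the assembly factors. Cycs, the somatic cytochrome c, read 8.39, 8.44, 8.62 and 8.23 on aged BACHD arrays and 8.74, 8.80, 8.80 and 8.82 on young BACHD arrays, lower by -0.37 (limma, adjusted p = 0.0401) without overlap. Coq9, which helps to make coenzyme Q, was lower by -0.32 in BACHD hearts (limma, adjusted p = 0.0163) and by -0.24 in WT hearts (limma, adjusted p = 0.126). Coq4 and Coq8a were lower in aged BACHD hearts by -0.36 and -0.48, and the hydroxylase Coq7 was higher by 0.26. Without the 4 aged arrays that stood apart in atrial markers, the calls were Cycs and Coq9 in BACHD hearts, and 0 in WT hearts. Under median scaling, Coq9 alone was called, in both genotypes.

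Of 20 measured transcriptional regulators of the chain, 1 was called for age in BACHD hearts, Esrrb, an estrogen-related receptor, and 0 in any other comparison. For age in BACHD hearts, 5.15% of all probes and 11.7% of the probes detected on every array were called. Esrrb read 10.76, 10.78, 10.53 and 10.87 on aged BACHD arrays and 10.23, 10.19, 10.28 and 10.11 on young BACHD arrays, higher by 0.53 (SE 0.080, limma, adjusted p = 0.00261). In WT hearts its difference was 0.22 (limma, adjusted p = 0.271). Of 16 measured genes of the citric acid cycle, 2 were lower with age in BACHD hearts, Dlst (-0.22) and Dlat (-0.28), the acyltransferases of the oxoglutarate and pyruvate dehydrogenase complexes, where 11.7% of all detected probes were called. Under median scaling neither was called, and without the 4 aged arrays that stood apart in atrial markers Dlst was not. Of 13 measured genes of adenine nucleotide, phosphate and creatine transport and of protein import, only Timm44, part of the import motor, was called, lower by -0.33 in aged BACHD hearts. The shares of all probes called are those given for the regulators. In young hearts, 0 genes of any of these lists were called between BACHD and WT.

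**Figure D5:**
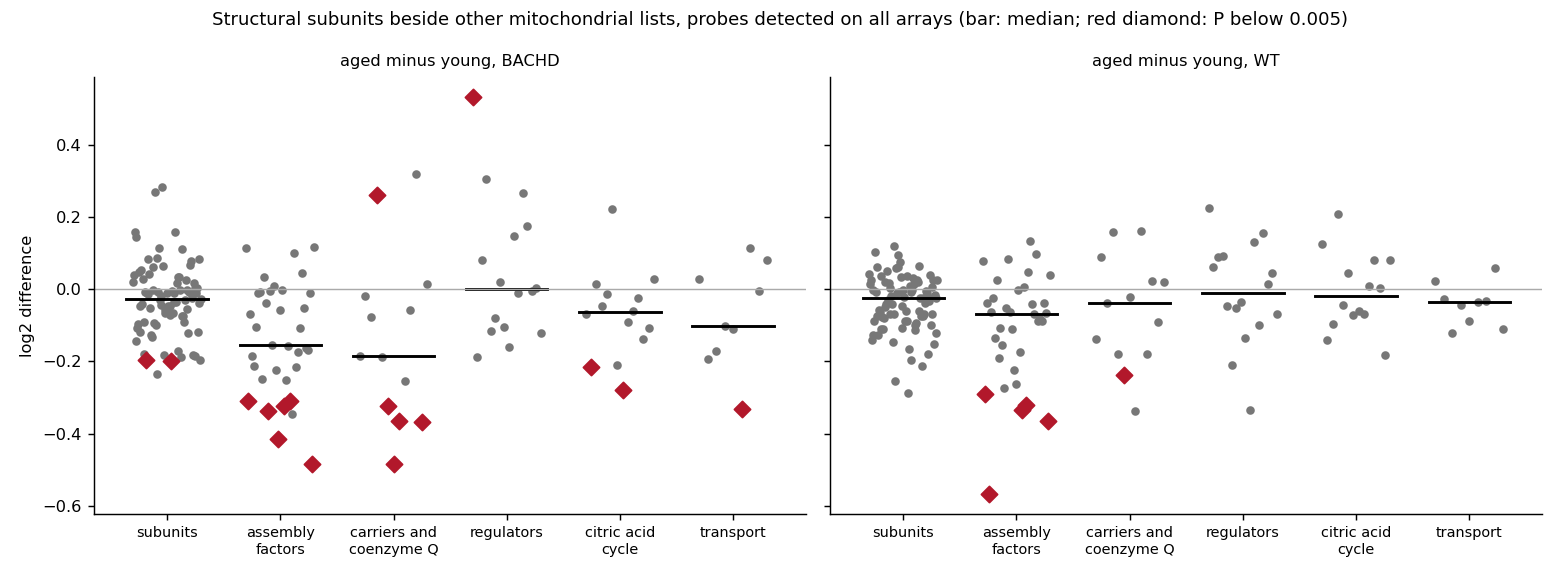
The log2 differences with age in BACHD hearts (left) and WT hearts (right) are plotted for the 85 subunit probes and for the measured genes of 5 lists that were detected on all arrays, with the median as a bar and probes called at P below 0.005 as red diamonds. The subunits lie near 0, with medians of -0.027 in BACHD and -0.026 in WT hearts, while the assembly factors have medians of -0.15 and -0.070. Of the subunit probes, 38 had a mean level of 14 or more, the assembly factors lay below that level, and levels were not matched. Under median scaling, the subunit medians were -0.079 and -0.067, and those of all 40 measured assembly factors -0.16 and -0.11. Taco1, which not every array detected, is not drawn.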

How the data were processed

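RNA from the ventricles of 16 mice was hybridised by the authors to Illumina MouseRef-8 v2.0 arrays, 1 array per mouse, and scanned signals were summarised in BeadStudio (version not given in the sources used here). The deposited bead intensity values had no background correction or normalization, and a deposited detection p-value came with each. The deposited log2 values processed by the authors equalled the quantile-normalized log2 intensity within 5e-09 and served as an alternative. Here, intensities were background-corrected with normexp (offset 16, negative controls inferred from detection), quantile-normalized and log2-transformed (neqc), and group means were fitted to all 16 arrays with limma 3.58.1 in R 4.3.3, with calls at P below 0.005, the threshold the methods use. Arrays correlated at 0.984 to 0.994, and precision is limited by their number. The model was also run on simulated data with known changes, and the outcome of that run is not given here. Of the probes, 23978 had 1 gene symbol and 1719 none, by the platform annotation, which can be old.

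The text names members called in any comparison, the member of smallest p per complex and comparison, tissue isoforms, core subunits, members whose probes disagree, and genes called in the lists. The members and lists were chosen with earlier results of these data known. Alternatives were no background correction, offset 50, median scaling, detection on at least 4 arrays, the authors' values, other variance estimates, averaged probes, only the arrays compared, a replicate block and leaving out arrays. Marker lists of endothelial, smooth muscle, adipocyte, fast skeletal muscle and erythroid cells were also measured, and 0 endothelial, 0 adipocyte and 0 erythroid markers were called in any comparison, against 1 of 6 smooth muscle markers for age in WT hearts and 1 of 6 fast skeletal muscle markers for the interaction. Of the 5 measured adipocyte markers, 4 were detected on no array, and only 2 erythroid markers were measured, so these lists could show little. The summed linear level of the adipocyte markers was 201.6 on aged WT array 4, against at most 85.72 on any other array.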

Additional observations from a re-analysis of the deposited data

Results flagged for a closer look

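Among 192 groups of 4 arrays, over 48 named probes, 6 held an array that Dixon's criterion set apart from the other 3. This is fewer than the about 1 in 20 groups that chance gives. The criterion weighs a gap against the spread of its group, so a small gap can meet it. For Ndufs8, aged WT array 2 read 13.42, against 13.45 to 13.46 on the others. For the Ndufv3 probe ILMN_2668977, young WT array 2 read 14.44 and the next 14.34. For the dim Ndufv3 probe ILMN_2688822, aged WT array 1 read 6.056 and the next 5.872. For Uqcrc2, young BACHD array 3 read 14.42, against 14.39 on the others. For a Cox6a1 probe, young WT array 1 read 11.96, against 12.05 to 12.06. For Atp5g1, young WT array 3 read 14.78, against 14.82. For Uqcrc2 and Atp5g1 the other 3 arrays gave equal values, so any different value would meet the criterion. The genotype effect differed between the ages for Cox7b2, by -0.346 (limma, adjusted p = 0.726), and every array left that probe undetected.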

How the results depend on the processing

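No called difference changed direction in the alternatives run. For age in BACHD hearts, 3 members were called, 5 without background correction, 5 on the authors' processed values, 5 with an offset of 50, 1 under median scaling, 1 among probes detected on at least 4 arrays, 0 with only the arrays compared and 1 with probes averaged per gene. For age in WT hearts, 1 was called, 2 with an offset of 50, 0 among probes detected on at least 4 arrays and 0 with only the arrays compared. For genotype in aged hearts, 1 was called, 0 among probes detected on at least 4 arrays and 0 with only the arrays compared, and for the difference between the ages 1, and 0 among probes detected on at least 4 arrays. Without the 4 aged arrays that stood apart in atrial markers, a setting chosen after seeing the data, 3 were called for age in WT hearts (Ndufs4, Cox7b and Cox7b2), 2 for age in BACHD hearts (Ndufb6 and Cox6b2), 1 for genotype in aged hearts (Ndufb6) and 0 for the difference between the ages. Of all probes, that fit called 2.21%, 4.31%, 1.59% and 1.26% in these comparisons, in the same order. Median scaling called 3.34% of all probes for age in BACHD hearts and 1.88% in WT hearts. Shares of all probes are not given for the other fits, so their counts cannot be set against the whole array. Leaving out 1 array at a time gave 0 to 0 for genotype in young hearts, 1 to 2 in aged hearts, 1 to 2 for age in WT hearts, 0 to 4 in BACHD hearts and 1 to 2 for the difference. The count in BACHD hearts was 0 without young BACHD array 1 and 0 without aged BACHD array 4. Same-numbered arrays correlated between -0.102 and 0.326, not above 0.1 in every pair, and the labels give no shared origin, so the arrays were not treated as paired. With the number as a replicate block the count in BACHD hearts was again 3. Smaller numbers of probes or arrays enter some of these fits, and otherwise the cause was not tested. Dim probes limit the rest: 9 members were detected on no array.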
